A study of Homo sapiens with 4 samples.

Results

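The PIAS ligases and enzymes of SUMO conjugation were followed here on 4 arrays of MDA-MB231 cells, in which one of these ligases, PIAS1, was knocked down. The genes chosen were PIAS1, PIAS2, PIAS3 and PIAS4, the modifier SUMO3, the E1 subunits SAE1 and UBA2, and the proteases SENP3 and SENP6. They were read from every probe set (a group of short probes for one transcript or for related ones) that the platform's gene table gives to one of them alone. This found 17 probe sets of 8 of the 9 genes, among 19064 probe sets with a single gene symbol. UBA2 had none and is not analysed here.

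SUMO proteins are small relatives of ubiquitin that are joined to lysines of other proteins. An E1 enzyme made of SAE1 and UBA2 activates SUMO, the E2 enzyme UBC9 carries it, and E3 ligases such as the PIAS proteins help to pass it to a chosen target, while SENP proteases cut it off again. PIAS proteins were first known as inhibitors of STAT transcription factors, and many SUMO targets are regulators of transcription.

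MDA-MB231 cells are an estrogen receptor negative line from a human breast carcinoma. The groups were PIAS1 shRNA2 cells in SCM, control shRNA cells in SCM, PIAS1 shRNA2 cells in DMEM and control shRNA cells in DMEM, each kept for 30 h in its medium and measured on 1 Affymetrix human expression array. SCM is a serum-free medium for stem cells with EGF, bFGF and insulin, and DMEM held 10% FBS, so the media differ in serum, growth factors and base, and these cannot be told apart. Both hairpins were expressed from the U6 promoter of a lentiviral vector with puromycin resistance, and the control hairpin is a scrambled sequence. Each hairpin is represented by 1 stable cell line, so loss of PIAS1 cannot be told apart from another difference between the lines. No condition has a replicate, and in whole-culture RNA fewer cells with a transcript cannot be told apart from less of it per cell.

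The values are MAS5 signals, array intensities on a linear scale, with medians between 569 and 605 on the 4 arrays. Signals under 185, a background floor set from 89 probe sets of genes of other tissues, were raised to it. A ratio with 1 signal under the floor is a bound, and with both under it no ratio was formed. On each array 64.4% to 68.1% of probe sets lay above the floor. Each marker gene was read on its brightest probe set only. All 7 marker genes of MDA-MB231 cells, such as VIM and CD44, lay above the floor on all arrays, and their summed signal was between 269203 and 285228. Of 7 epithelial genes that the line should lack, EPCAM, ESR1 and GATA3 were above the floor on all arrays, with a summed list signal between 3159 and 7022. Passing the floor on the brightest probe set does not show that a gene is expressed. By quantitative PCR, the paper could not detect ESR1 in control shRNA cells. Of 7 measured leukocyte genes only CD14 was above the floor on all arrays, with a summed list signal between 1022 and 2056. The summed signal of 6 fibroblast genes was 3872 in SCM and 1649 in DMEM in PIAS1 shRNA2 cells, and 3768 in SCM and 2028 in DMEM in control shRNA cells. Its part in the differences between media was not tested.

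Between 2 arrays there is no test, and a ratio past 2-fold is set beside the share of all probe sets past 2-fold in that direction. In the knockdown ratio, pairs of probe sets of the same gene differed by a median of 0.21 on the log2 scale in SCM and 0.20 in DMEM. In the medium ratio the median was 0.28 in PIAS1 shRNA2 cells and 0.25 in control shRNA cells. Both probe sets of a pair share the same 2 arrays, so this spread holds no variation between cultures or arrays. It cannot say how far a ratio would repeat. The largest 10% of the pairs differed by at least 0.64 to 0.88. The only test the design allows is a limma fit with shRNA and medium as terms over 15304 probe sets above the floor on at least 2 arrays. It has 1 residual degree of freedom, reads only effects alike in both media or both lines, and treats arrays in 2 media, or of 2 lines, as if they were replicates.

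PIAS1, the ligase that the hairpin targets, was lower in PIAS1 shRNA2 cells on each of its 3 probe sets in both media, by unequal amounts. On 217862_at the PIAS1 signal was 671 in PIAS1 shRNA2 cells and 1814 in control shRNA cells in SCM, and 512 in PIAS1 shRNA2 cells and 1383 in control shRNA cells in DMEM. The ratio was 37.0% of control in each medium, with log2 ratios that differed by less than 0.01. On 217864_s_at the PIAS1 signal was 500 in PIAS1 shRNA2 cells and 1588 in control shRNA cells in SCM, and 363 in PIAS1 shRNA2 cells and 1527 in control shRNA cells in DMEM. On both of these probe sets, and on 217863_at below, the PIAS1 shRNA2 signals lay under both control shRNA signals. The share of all probe sets separated in this way was not counted. The remaining probe set, 217863_at, read 548 in PIAS1 shRNA2 cells and 704 in control shRNA cells in SCM, and 158, under the floor, in PIAS1 shRNA2 cells and 684 in control shRNA cells in DMEM.

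The 3 probe sets thus gave different depths of the knockdown in SCM. The log2 ratios of PIAS1 in SCM were -1.43 on 217862_at, -1.67 on 217864_s_at and -0.36 on 217863_at, and of all probe sets tested 0.354%, 0.149% and 16.5% were as low. In DMEM the log2 ratios on the same probe sets were -1.43, -2.07 and at most -1.89, and 0.207%, 0.0129% and 0.0388% of all were as low. The 217863_at ratio in SCM lies 1.07 and 1.31 above its neighbours of the same gene, beyond the difference that the largest 10% of same-gene pairs reached. Its gap between the media was at least 1.53 on the log2 scale, and 1.5% of all probe sets had one as large. With no replicate arrays this gap was not tested.

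**Figure D1:**
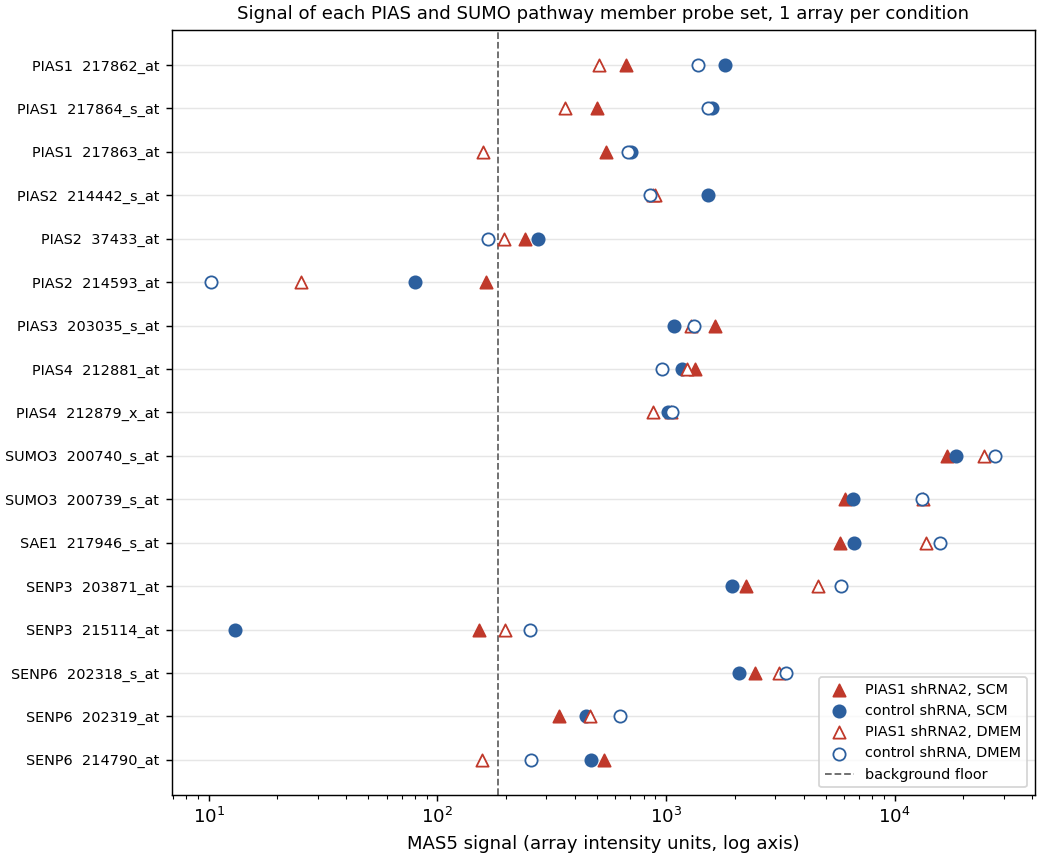
MAS5 signal (x axis, array intensity units on a log axis) of each of the 17 probe sets (y axis), with 1 array per condition: triangles are PIAS1 shRNA2 cells and circles control shRNA cells, filled in SCM and open in DMEM, and the dashed line is the floor of 185. The triangles of PIAS1 lie left of its circles on all 3 probe sets, while for SUMO3, SAE1 and SENP3 203871_at the filled symbols of both shapes lie left of the open ones.

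In the limma fit over both media, PIAS1 had a log2 effect of -1.87 ± 0.26 on 217864_s_at (SE, 2 arrays per shRNA, adjusted p = 0.00199) and of -1.43 ± 0.25 on 217862_at (adjusted p = 0.00996). On 217863_at the log2 effect was -1.12 ± 0.35 with an adjusted p of 0.219. Over all probe sets this fit called 0.327% as lower and 0.601% as higher with PIAS1 shRNA2, and of the 16 member probe sets tested the 2 named are the ones called. These calls were lost under several alternatives. With a variance prior that ignores signal the adjusted p in limma was 0.209 for 217864_s_at and 0.239 for 217862_at, and after scaling each array to one median it was 0.0785 and 0.126 on the same probe sets. With no filter on low signals it was 0.853 for both. Over all alternatives the lowest was 0.000371 for 217864_s_at and 0.00226 for 217862_at, and the highest was 1 for both. No probe set of any gene was called with any 1 of the 4 arrays left out, PIAS1 shRNA2 or control shRNA, in SCM or DMEM, and the medium term dropped with it. The smallest adjusted p was then 0.998, and 82 to 209 probe sets had an unadjusted p under 0.05. The PIAS1 effect on 217864_s_at was between -2.10 and -1.64 over all alternatives.

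None of the other members differed by 2-fold between PIAS1 shRNA2 and control shRNA cells in either medium. In SCM 2 of 15 member probe sets were past 2-fold lower and 0 past 2-fold higher, against 1.62% lower and 2.02% higher of all 16096 probe sets tested. In DMEM 3 of 16 were past 2-fold lower and 0 higher, against 0.997% lower and 1.55% higher of all 15454. All of these were PIAS1. With the floor at 391 the DMEM count lower was 2, as the ratio of PIAS1 217863_at was then at most -0.81, which also narrows its gap between the media. Without PIAS1, the median log2 ratio of the member probe sets was -0.04 in SCM (range -0.80 to 0.60) and -0.17 in DMEM (range -0.47 to 0.36), beside medians of 0.00 and 0.02 over all probe sets. The fit called 0 of the 13 member probe sets outside PIAS1 for the knockdown. Of these, 0 had an unadjusted p under 0.05 in limma, against 1621 of all 15304 probe sets in the fit.

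**Figure D2:**
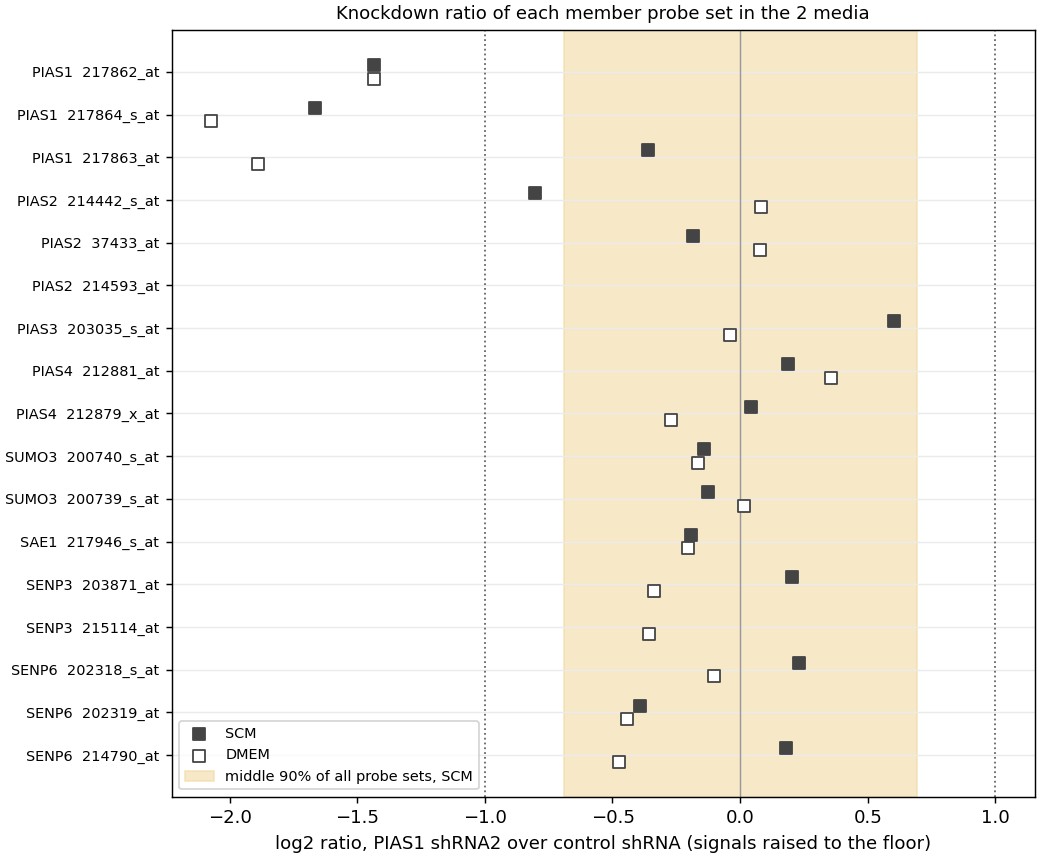
Knockdown ratio (PIAS1 shRNA2 cells over control shRNA cells, log2, x axis) of each member probe set (y axis), filled squares in SCM and open squares in DMEM, with low signals set to the floor. Dotted lines stand at 2-fold and the shaded band holds the middle 90% of all probe sets in SCM (-0.69 to 0.69). Ratios with both signals under the floor are left out, and the DMEM ratio of PIAS1 217863_at is an upper bound. PIAS1 passes 2-fold, and PIAS2 214442_s_at, at -0.80 in SCM, is the one other probe set outside the band.

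Among the 3 relatives of PIAS1, PIAS2 (PIASx) read differently in SCM and in DMEM. On 214442_s_at, its brightest probe set, PIAS2 had a signal of 874 in PIAS1 shRNA2 cells and 1527 in control shRNA cells in SCM, and 899 in PIAS1 shRNA2 cells and 848 in control shRNA cells in DMEM. The other conditions thus lay close together, with the control shRNA array in SCM above them. The log2 ratio was -0.80 in SCM, or 57.3% of control, and 3.36% of all probe sets were as low. In DMEM it was 0.08. The gap of 0.89 between media was reached by 8.65% of all probe sets, and was not tested.

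The dimmer PIAS2 probe sets did not carry this pattern at a level that can be read. On 37433_at the signals of PIAS2 were 243 in PIAS1 shRNA2 cells and 276 in control shRNA cells in SCM, and 195 in PIAS1 shRNA2 cells and 167 in control shRNA cells in DMEM, all close to the floor. The knockdown log2 ratio was -0.19 in SCM and at least 0.08 in DMEM. On 214593_at all 4 signals, between 10.3 and 164, were under the floor. The limma fit gave PIAS2 214442_s_at a knockdown effect of -0.36 ± 0.27 with an adjusted p of 0.708.

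PIAS3, known as an inhibitor of STAT3, was read on 1 probe set, with signals of 1647 in PIAS1 shRNA2 cells and 1085 in control shRNA cells in SCM, and 1293 in PIAS1 shRNA2 cells and 1327 in control shRNA cells in DMEM. The log2 ratio in SCM was 0.60, or 152% of control, and 6.92% of all probe sets were as high, while the ratio in DMEM was -0.04. The highest and the lowest of the 4 PIAS3 signals were both in SCM. The fit over both media gave 0.28 ± 0.24 with an adjusted p of 0.754 in limma.

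PIAS4 (PIASy), a ligase with roles in the DNA damage response, was close to level over the 4 arrays. On 212881_at its signals were 1340 in PIAS1 shRNA2 cells and 1177 in control shRNA cells in SCM, and 1231 in PIAS1 shRNA2 cells and 961 in control shRNA cells in DMEM. On 212879_x_at, whose probes can also bind related sequences, they were 1048 in PIAS1 shRNA2 cells and 1018 in control shRNA cells in SCM, and 878 in PIAS1 shRNA2 cells and 1058 in control shRNA cells in DMEM. The 2 probe sets gave knockdown log2 ratios of 0.19 and 0.04 in SCM, and of 0.36 and -0.27 in DMEM, where their signs are opposite. No PIAS gene therefore stood past 2-fold higher where PIAS1 was low.

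Between the media, the modifier SUMO3, the E1 subunit SAE1 and the protease SENP3 were lower in SCM in both lines, SAE1 and SENP3 203871_at by over 2-fold in each. SUMO3 encodes a modifier closely related to SUMO2, with which it forms chains. Its probe set 200739_s_at read 6041 in SCM and 13322 in DMEM in PIAS1 shRNA2 cells, and 6598 in SCM and 13187 in DMEM in control shRNA cells. The other SUMO3 probe set, 200740_s_at, read 16880 in SCM and 24591 in DMEM in PIAS1 shRNA2 cells, and 18637 in SCM and 27595 in DMEM in control shRNA cells. Both SCM arrays were below both DMEM arrays on each probe set, and both lines gave nearly the same ratio. How many of all probe sets were separated in this way was not counted.

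In log2 units the SUMO3 ratio of SCM over DMEM was -1.14 in PIAS1 shRNA2 cells and -0.999 in control shRNA cells on 200739_s_at, where the second value falls just short of 2-fold. It was -0.54 in PIAS1 shRNA2 cells and -0.57 in control shRNA cells on 200740_s_at. The 2 probe sets differ by 0.60 and 0.43, more than the median same-gene pair, so the size of the SUMO3 difference is not settled between 68.6% and 45.3% of the DMEM signal. The knockdown log2 ratios of SUMO3 were between -0.17 and 0.01.

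SAE1, the smaller E1 subunit, had the most even medium ratio of the members past 2-fold. Its single probe set, 217946_s_at, read 5801 in SCM and 13758 in DMEM in PIAS1 shRNA2 cells, and 6628 in SCM and 15834 in DMEM in control shRNA cells. The SCM signals were 42.2% of the DMEM signals in PIAS1 shRNA2 cells and 41.9% in control shRNA cells, log2 ratios of -1.25 in PIAS1 shRNA2 cells and -1.26 in control shRNA cells. Of all probe sets, 6.54% in PIAS1 shRNA2 cells and 6.49% in control shRNA cells were as low. The knockdown log2 ratio of SAE1 was -0.19 in SCM and -0.20 in DMEM, nearly the same in both media.

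SENP3, a nucleolar protease that removes SUMO2 and SUMO3, was lower in SCM on the probe set 203871_at. Its signals were 2238 in SCM and 4602 in DMEM in PIAS1 shRNA2 cells, and 1944 in SCM and 5822 in DMEM in control shRNA cells. The log2 ratios were -1.04 in PIAS1 shRNA2 cells and -1.58 in control shRNA cells, so that 48.6% of the DMEM signal was left in PIAS1 shRNA2 cells and 33.4% in control shRNA cells. After quantile normalization the ratio in PIAS1 shRNA2 cells was -0.978, just short of 2-fold. The knockdown ratio of SENP3 was 0.20 in SCM and -0.34 in DMEM, and this gap of 0.54 was reached by 22.5% of all probe sets. On 215114_at SENP3 read 153 in SCM and 199 in DMEM in PIAS1 shRNA2 cells, and 13.1 in SCM and 254 in DMEM in control shRNA cells. Both SCM signals are under the floor, so this probe set gave only bounds between media. A probe set shared by SENP3 and its read-through transcript with EIF4A1 names both genes and was not used.

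The promoters of SUMO3 and SENP3 are shown because these are the members lower in SCM by 2-fold or nearly so that the sequence table holds; it gave windows for 8 of the 9 genes, 10 windows in all, with no entry matched for SAE1. Each is the RefSeq window (GRCh38.p14) of 300 bases around the transcription start, 5′ to 3′ on the gene's strand. Capitals mark an E-box (CACGTG) or the core of a cAMP response element, CRE (TGACG), searched on both strands, whose letters do not overlap in these windows.
SUMO3 promoter, chr21:44818013-44818312, minus strand: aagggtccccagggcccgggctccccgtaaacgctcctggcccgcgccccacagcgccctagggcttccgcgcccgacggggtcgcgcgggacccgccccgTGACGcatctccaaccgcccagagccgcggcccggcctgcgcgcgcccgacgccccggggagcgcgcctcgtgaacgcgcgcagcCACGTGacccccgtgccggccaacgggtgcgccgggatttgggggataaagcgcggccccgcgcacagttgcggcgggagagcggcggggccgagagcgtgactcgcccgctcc
SENP3 promoter, chr17:7561669-7561968, plus strand: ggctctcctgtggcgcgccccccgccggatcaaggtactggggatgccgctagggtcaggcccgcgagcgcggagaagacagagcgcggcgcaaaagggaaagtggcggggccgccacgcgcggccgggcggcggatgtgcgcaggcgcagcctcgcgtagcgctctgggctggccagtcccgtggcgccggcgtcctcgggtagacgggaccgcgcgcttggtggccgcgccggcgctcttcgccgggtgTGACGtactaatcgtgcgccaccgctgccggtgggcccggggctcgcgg
The SUMO3 window held 1 E-box, 1 CRE core and 2 GC boxes (GGGCGG), and the SENP3 window 1 CRE core and 1 GC box. Of 35116 promoter windows of the same length, 7.26% held the E-box, 24.6% the CRE core and 45.0% the GC box. Matches of CCAAT, of the E2F motif TTTCCCGC and of the YY1 motif AAGATGGC, which 34.6%, 1.63% and 2.89% of all windows held, were found in neither. The PIAS4 window and 1 of the 2 PIAS2 windows each held 1 E-box and 1 CRE core too, and neither gene was called lower in SCM. A match is a stretch of letters and not a bound site.

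SENP6, a protease that trims chains of SUMO2 and SUMO3, had 3 probe sets that did not move together between the media. On the brightest, 202318_s_at, SENP6 read 2450 in SCM and 3119 in DMEM in PIAS1 shRNA2 cells, and 2088 in SCM and 3343 in DMEM in control shRNA cells. On 202319_at it read 341 in SCM and 465 in DMEM in PIAS1 shRNA2 cells, and 448 in SCM and 632 in DMEM in control shRNA cells. Both were lower in SCM in each line, with log2 ratios of -0.35 and -0.45 in PIAS1 shRNA2 cells and of -0.68 and -0.50 in control shRNA cells. On 214790_at SENP6 went the other way, with 534 in SCM and 157, under the floor, in DMEM in PIAS1 shRNA2 cells, and 472 in SCM and 257 in DMEM in control shRNA cells, log2 ratios of at least 1.53 in PIAS1 shRNA2 cells and of 0.88 in control shRNA cells. A single medium ratio of SENP6 can therefore not be stated from this array. With the knockdown, the log2 ratio of SENP6 was 0.23 in SCM and -0.10 in DMEM on 202318_s_at, -0.39 and -0.44 on 202319_at, and 0.18 and at most -0.47 on 214790_at.

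**Figure D3:**
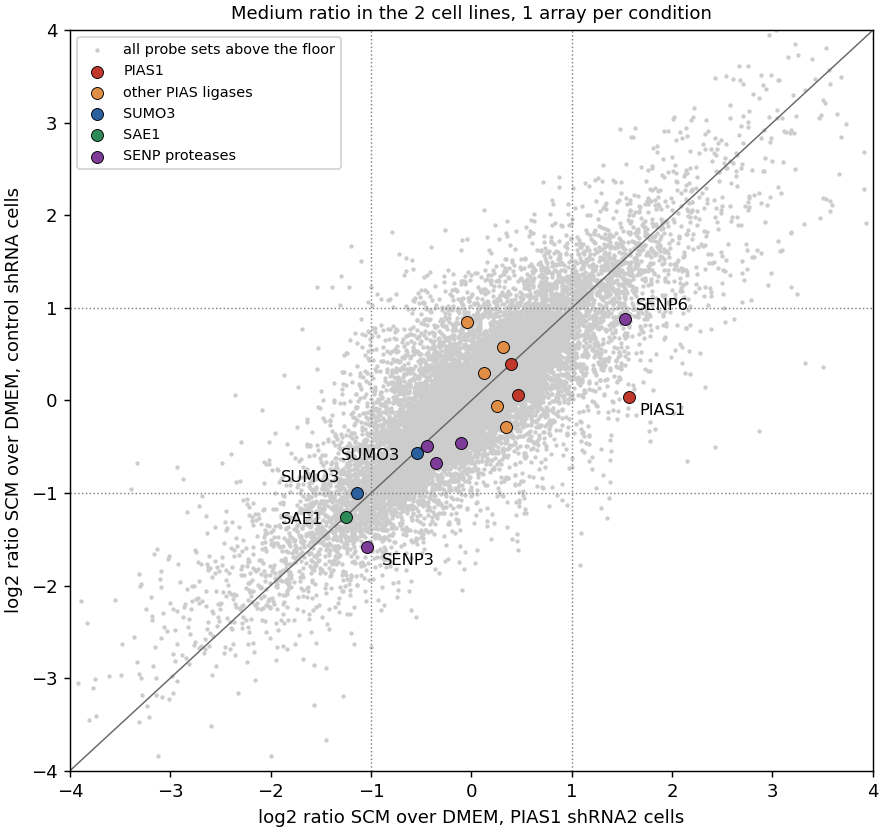
Log2 ratio of SCM over DMEM in PIAS1 shRNA2 cells (x axis) and in control shRNA cells (y axis), 1 array per condition, with low signals set to the floor. Grey points are all probe sets with a ratio in both lines, coloured points are the members, dotted lines mark 2-fold and the solid line equal ratios. SAE1 and SENP3 203871_at lie past 2-fold lower on both axes, SUMO3 200739_s_at lies at the edge, and PIAS1 217863_at and SENP6 214790_at lie to the right, where their x values are lower bounds.

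Differences of this size between media were common over the whole array. In PIAS1 shRNA2 cells 3 of 16 member probe sets were past 2-fold lower in SCM and 2 past 2-fold higher, against 10.1% lower and 10.5% higher of all 16059 probe sets tested. In control shRNA cells 2 of 16 were past 2-fold lower and 0 higher, against 10.1% lower and 11% higher of all 15835. Both of the higher ones in PIAS1 shRNA2 cells, on PIAS1 217863_at and SENP6 214790_at, were bounds against a DMEM signal under the floor, and neither was past 2-fold with the floor at 391. The median log2 ratio of the members was 0.04 in PIAS1 shRNA2 cells and -0.17 in control shRNA cells, beside -0.02 and 0.04 over all probe sets.

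In the limma fit of the medium over both lines, 5 of 16 member probe sets were called lower in SCM and 1 higher, against 23.1% lower and 22.1% higher of all 15304. SENP3 203871_at had a log2 effect of -1.31 ± 0.17 (SE, 2 arrays per medium, adjusted p = 2.93e-05), SAE1 of -1.25 ± 0.12 (adjusted p = 1.28e-06), and SUMO3 of -1.07 ± 0.12 (adjusted p = 6.81e-06) and -0.55 ± 0.10 (adjusted p = 0.000569). SENP6 was called lower on 202318_s_at, at -0.51 ± 0.17 (adjusted p = 0.0267), and higher on 214790_at, at 1.20 ± 0.30 (adjusted p = 0.00497). Of the 8 PIAS probe sets tested, which belong to 4 genes, 0 were called. All 8 effects lay above 0, between 0.03 and 0.80. Their median was 0.33, beside 0.01 over all probe sets, and the share of all probe sets above 0 was not counted. The largest, 0.80, is of a PIAS1 probe set whose DMEM signal in PIAS1 shRNA2 cells was raised to the floor. Within the lines, 1 of the 8 PIAS ratios was below 0 in PIAS1 shRNA2 cells and 2 of 8 in control shRNA cells. PIAS3 was at -0.03 with the arrays scaled to one median. All 3 PIAS1 probe sets, PIAS3 and PIAS4 212879_x_at were below 0 with 1 or other of the arrays left out. With any 1 array left out, whether PIAS1 shRNA2 or control shRNA, in SCM or DMEM, and with the shRNA term dropped as well, since no residual degree of freedom is left otherwise, the fit called 0 probe sets of any gene. Then the smallest adjusted p was between 0.0680 and 0.0978, and 4739 to 5771 probe sets had an unadjusted p under 0.05. The SAE1 effect stayed between -1.35 and -1.15 over the 11 alternatives, with an adjusted p of 0.00806 without the variance trend and from 1.55e-07 to 0.119 over all of them. Without the trend the adjusted p in limma was 0.0540 for SUMO3 200740_s_at and 0.0829 for SENP6 202318_s_at. Both calls were thus lost, while the other called member probe sets kept theirs. SENP6 202318_s_at also had 0.0824 after quantile normalization and 0.0564 with only the tested term.

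Other genes of the pathway were read from lists of modifiers, E1 and E2, ligases, proteases and SUMO-targeted ubiquitin ligases, which hold 24 genes beside the members. Of these, 16 had a probe set of their own, 26 in all. None of the 26 was past 2-fold with the knockdown in SCM, with a median log2 ratio of -0.08 (range -0.81 to 0.94), and none of 25 in DMEM. Over all probe sets 1.62% were past 2-fold lower and 2.02% higher in SCM, and 0.997% and 1.55% in DMEM. The fit called 0 of 26 for the knockdown, against 0.327% lower and 0.601% higher over all probe sets. In limma 2 of the 26 had an unadjusted p under 0.05 (SUMO4 and DESI2), against 1621 of all 15304 probe sets. Past 2-fold with the medium were 2 lower and 1 higher in PIAS1 shRNA2 cells and 2 lower and 0 higher in control shRNA cells, and over both lines the fit called 5 lower and 3 higher in SCM, 1 of the 3 being ZMIZ2 221525_at. These shares are not above the 10.1% lower and 10.5% higher in PIAS1 shRNA2 cells, the 10.1% and 11% in control shRNA cells, and the 23.1% and 22.1% in the fit over all probe sets. SUMO4, a close relative of SUMO2, had nearly the same knockdown ratio in both media, with signals of 13847 in PIAS1 shRNA2 cells and 18455 in control shRNA cells in SCM, and 12990 in PIAS1 shRNA2 cells and 17038 in control shRNA cells in DMEM. Its effect in limma was -0.40 ± 0.11 with an adjusted p of 0.134, on a probe set whose probes can bind related sequences.

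Among the other ligases, TRIM28, a corepressor that also acts as a SUMO ligase, had its signals in the same order over the 4 arrays as SAE1. SUMO3 200740_s_at and CUL4B 202214_s_at were among further probe sets with that order, and the share of all probe sets with it was not counted. The knockdown log2 ratios of TRIM28 were only -0.07 in SCM and -0.05 in DMEM. Its signals were 7599 in SCM and 16630 in DMEM in PIAS1 shRNA2 cells, and 7967 in SCM and 17206 in DMEM in control shRNA cells, a log2 effect in limma of -1.12 ± 0.11 (adjusted p = 2.64e-06). MUL1, a mitochondrial ligase, had signals of 983 in SCM and 1874 in DMEM in PIAS1 shRNA2 cells, and 777 in SCM and 1710 in DMEM in control shRNA cells, with -1.03 ± 0.23 (adjusted p = 0.00201). ZNF451, a ligase for SUMO2 and SUMO3, was higher in SCM on 212557_at, at 0.69 ± 0.16 (adjusted p = 0.00329), while its dim probe set 215012_at had a log2 ratio of -1.15 in PIAS1 shRNA2 cells and -0.07 in control shRNA cells. ZMIZ2, a relative of the PIAS genes, read 512 in SCM and 40.5 in DMEM in PIAS1 shRNA2 cells, and 266 in SCM and 126 in DMEM in control shRNA cells on 221525_at. Both DMEM signals are under the floor, so it entered the fit only through the medium where it is high, and its call there is no support for a difference. Its brightest probe set, 54970_at, had 0.09 ± 0.15. ZMIZ1 (-0.20 ± 0.12) and the brightest probe set of the nuclear pore ligase RANBP2 (-0.04 ± 0.15) were not called.

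Among the other proteases, DESI1, a SUMO peptidase outside the SENP family, was called lower in SCM on both probe sets, at -0.53 ± 0.20 (adjusted p = 0.0488 in limma) and -0.62 ± 0.23 (adjusted p = 0.0427). SENP7, which acts on chains of SUMO2 and SUMO3, was called higher, at 0.89 ± 0.29 (adjusted p = 0.0235), with signals of 397 in SCM and 200 in DMEM in PIAS1 shRNA2 cells, and 436 in SCM and 254 in DMEM in control shRNA cells. The brightest probe sets of DESI2 (0.12 ± 0.12) and SENP5 (-0.13 ± 0.17) were not called. RNF4, a ubiquitin ligase that reads SUMO chains, was lower, at -0.59 ± 0.12 (adjusted p = 0.00133), and its relative RNF111 had 0.29 ± 0.20. RWDD3, a protein that enhances SUMO conjugation, had 0.42 ± 0.22 with an adjusted p of 0.145.

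**Figure D4:**
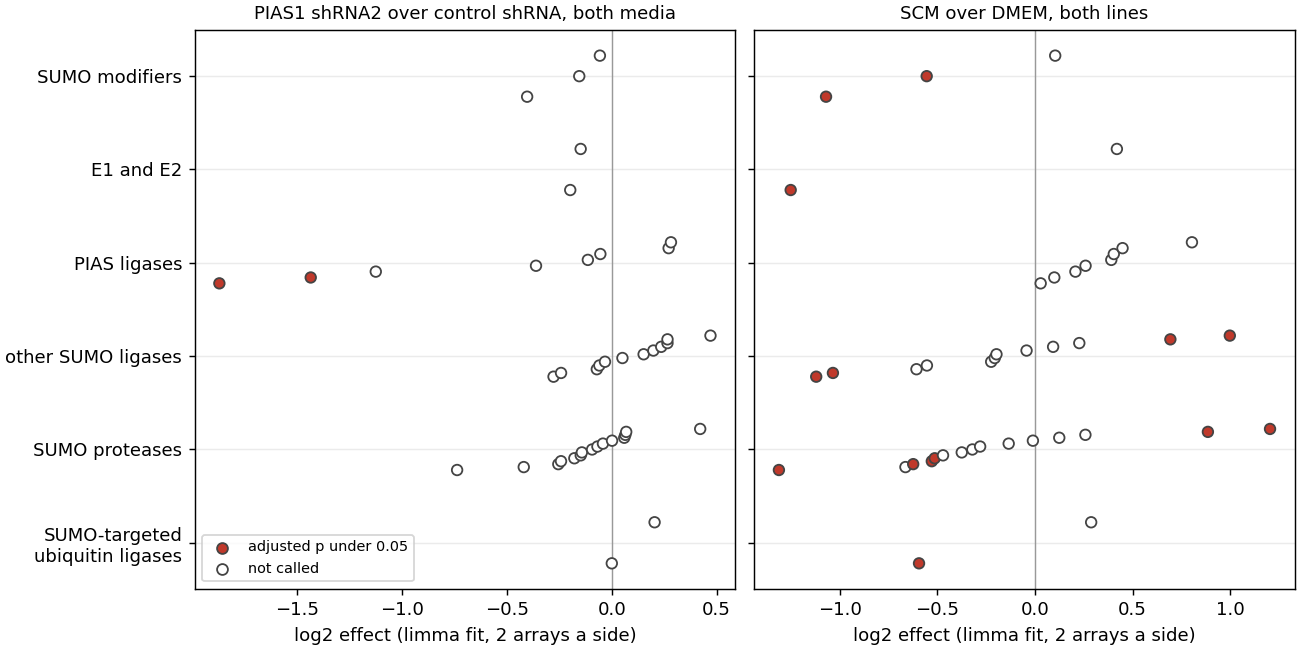
Log2 effect in the limma fit (x axes) of each probe set of the 6 SUMO pathway lists, members included (rows), for PIAS1 shRNA2 over control shRNA over both media (left) and for SCM over DMEM over both lines (right). Each point is 1 probe set, red where the adjusted p is under 0.05 and white where it is not. On the left the 2 red points are PIAS1, and on the right 14 of 42 points are red, 10 of them below 0 and none of them a PIAS ligase, where over all probe sets 23.1% were called lower and 22.1% higher.

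The genes whose 4 signals were most like those of PIAS1 217862_at were found by the distance between centred log2 signals, over 4 arrays and 11605 probe sets with 1 symbol above the floor on all arrays. They were CST7, at a distance of 0.345, then ATP2B2 at 0.461, WT1 at 0.478, DEF6 at 0.543 and ADGRF5 at 0.549. The other bright PIAS1 probe set, 217864_s_at, lay at 0.498, between WT1 and DEF6. CST7, a cystatin gene, read 3967 in PIAS1 shRNA2 cells and 11214 in control shRNA cells in SCM, and 2424 in PIAS1 shRNA2 cells and 6650 in control shRNA cells in DMEM, log2 ratios of -1.50 in SCM and -1.46 in DMEM. ATP2B2, which encodes a calcium pump, was close to the floor, with 207 and 190 in PIAS1 shRNA2 cells in SCM and DMEM, against 429 and 418 in control shRNA cells. A likeness over 4 arrays is a description only.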

How the data were processed

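RNA of MDA-MB231 cells with PIAS1 shRNA2 or control shRNA, in SCM or DMEM for 30 h, was measured on 1 Affymetrix human expression array per condition. The authors deposited signal intensities on a linear scale for 22277 probe sets, made with MAS5 according to the submitters' processing notes. For its version and settings, the sources used here give none. The authors' scaling, which left a trimmed mean of 2499 on each array, was kept. A global scaling of this kind sets ratios relative to the average transcript.

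After 62 control probe sets were left out, 22215 were used. The platform's gene table names 1 gene for 19064 of them, and 1043 with several symbols were not named, among them probe sets shared by SUMO2 and SUMO3. The floor was the 75th percentile over 89 probe sets for 52 other-tissue genes, at its highest on the 4 arrays. Its 95th percentile was an alternative. Ratios were taken on the log2 scale. limma 3.58.1 in R 4.3.3 (lmFit and eBayes with a variance trend) was run over all probe sets above the floor on at least 2 arrays, with Benjamini-Hochberg adjustment and calls at an adjusted p under 0.05. Steps were checked on simulated data. All other steps ran in Python 3.11.15 with NumPy 2.4.6, pandas 2.3.3 and matplotlib 3.10.9.

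The genes named are all members, the pathway genes past 2-fold or called by the fit, up to 2 further genes of each pathway list, the brightest, and the 5 genes most like PIAS1. The members, lists, rules and alternatives were chosen with earlier results of these data known. The alternatives were no floor or a higher one, quantile normalization, a common median, the brightest probe set per gene, and for limma the trend, the terms, the filter and leaving out each array. Protein levels and Q-PCR of the study were not analysed here. The number of arrays limits the precision.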

Additional observations from a re-analysis of the deposited data

Results flagged for a closer look

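PIAS3 was picked out because its medium ratio had opposite signs in the 2 lines. Its log2 ratio of SCM over DMEM was 0.35 in PIAS1 shRNA2 cells and -0.29 in control shRNA cells, each larger than the median difference between probe sets of the same gene. That median holds no variation between cultures or arrays. The difference between the lines was 0.64 on the log2 scale, and 17.2% of all probe sets had one as large. With 1 array per condition it was not tested. PIAS2 214442_s_at had opposite signs too, with -0.04 in PIAS1 shRNA2 cells and 0.85 in control shRNA cells. So did PIAS4 212879_x_at, with 0.25 in PIAS1 shRNA2 cells and -0.06 in control shRNA cells. PIAS3 has 1 probe set here, so no other reading of it can be set beside this value.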

How the results depend on the processing

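No called effect changed its direction. Past 2-fold with the knockdown in SCM, the members counted 2 lower and 0 higher, against 1 lower with the brightest probe set per gene and 2 higher with no floor, and in DMEM 3 lower and 0 higher, against 1 lower and 1 higher in the same 2 settings. Over all probe sets, the counts lower and higher in SCM were 261 and 325, against 2238 and 2159 with no floor, 110 and 160 with the floor at 391, and 139 and 203 with the brightest probe set. In DMEM they were 154 and 240, against 1888 and 2601, 58 and 82, and 78 and 136 in the same order. For the medium in PIAS1 shRNA2 cells, members higher were 2, against 0 with the floor at 391 and 0 with the brightest probe set, and all probe sets were 1622 lower and 1687 higher, against 3412 and 3838 with no floor and 961 and 1011 with the brightest. In control shRNA cells, members higher were 0, against 1 with no floor, and all were 1607 and 1736, against 3069 and 4431 with no floor and 981 and 985 with the brightest.

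In the limma fit of the knockdown, members lower were 2, against 0 with no trend, 0 with only the tested term, 0 with no filter, 0 with a common median, 1 with the brightest probe set and 0 to 0 with 1 array left out and the medium term dropped. All probe sets lower were 50 and higher 92, against 0 and 1 with no trend, 0 and 0 with only the tested term or no filter, 27 and 40 after quantile normalization, 10 and 11 with a common median, and 0 to 0 with 1 array left out and the medium term dropped. For the medium, members lower were 5, against 3 with no trend and 0 with no filter, and members higher 1, against 0 with no filter, with the floor passed on all 4 arrays or with the brightest probe set. All probe sets lower were 3529 and higher 3375, against 0 and 0 with no filter, where 5540 had an unadjusted p under 0.05, and 2209 and 2115 with the brightest. With 1 array left out and the other term dropped with it, which leaves 1 array on 1 side, all these counts were 0 to 0, and the part of each change was not separated. Fewer probe sets by construction lower the brightest counts, and for the rest the cause was not tested. The fit with both terms sets the 2 lines side by side within each medium, and no further replicate block could be added, as each condition has 1 array.

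Among effects that were not called, 25 changed sign, 24 of them with 1 array left out and only the tested term in the model, where by construction 1 side holds 1 array from 1 medium or line. With 1 array left out, the knockdown effect ranged from -0.78 to 0.063 for PIAS2 214442_s_at, -0.34 to 0.24 for PIAS2 37433_at, -0.24 to 0.014 for PIAS4 212879_x_at, -0.44 to 0.13 for SUMO3 200740_s_at, -0.63 to 0.51 for SUMO3 200739_s_at, -0.83 to 0.43 for SAE1, -0.86 to 0.72 for SENP3 203871_at, -0.41 to 0.051 for SENP3 215114_at, -0.27 to 0.40 for SENP6 202318_s_at and -0.91 to 0.62 for SENP6 214790_at. The medium effect then ranged from -0.33 to 1.11 for PIAS1 217862_at, -0.78 to 1.30 for 217864_s_at, -0.14 to 1.75 for 217863_at, -0.27 to 0.33 for PIAS3 and -0.035 to 0.23 for PIAS4 212879_x_at. With a common median the medium effect of PIAS3 was -0.033.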

Other observations

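Further groups linked to SUMO were read as values only. Of 7 genes of PML nuclear bodies, structures in the nucleus whose proteins carry SUMO, 26 probe sets were measured. None of the 22 tested in SCM was past 2-fold with the knockdown, and in DMEM 1 of 23 was, PML on 209640_at with a log2 ratio of 1.13 in DMEM and -0.23 in SCM. The other PML probe sets did not share that ratio, as 211012_s_at had 0.39 and 210362_x_at had -0.46 in DMEM. Over all probe sets 1.62% were past 2-fold lower and 2.02% higher in SCM, and 0.997% and 1.55% in DMEM. The limma fit called 0 of 22 for the knockdown, against 0.327% lower and 0.601% higher over all probe sets. In limma 1 of the 22 had an unadjusted p under 0.05 (ATRX 208859_s_at, 0.57 ± 0.23), against 1621 of all 15304 probe sets. Without the variance trend the fit called 1 probe set of any gene.

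With the medium the fit called 3 of these 22 lower and 4 higher in SCM, against 23.1% lower and 22.1% higher over all probe sets, so these calls do not set the group apart. SP100, a core protein of the bodies, was higher on its 2 bright probe sets, with log2 effects in limma of 1.18 ± 0.16 (adjusted p = 3.18e-05) and 1.14 ± 0.16 (adjusted p = 6.07e-05). On the first the SP100 signal was 4446 in SCM and 2018 in DMEM in PIAS1 shRNA2 cells, and 5495 in SCM and 2356 in DMEM in control shRNA cells. The dimmer SP100 probe set 210218_s_at had -0.22 ± 0.29 and was not called. SP110 was higher on 208012_x_at (0.75 ± 0.27), while its 3 other probe sets had 0.26, 0.13 and -0.11 and were not called. ATRX, a chromatin remodeler, was higher on 208860_s_at (0.81 ± 0.22), while its 3 others had -0.04, 0.38 and 0.48 and were not called. BLM, a DNA helicase, was lower, at -1.24 ± 0.27 (adjusted p = 0.00203), with 351 in SCM and 975 in DMEM in PIAS1 shRNA2 cells, and 612 in SCM and 1229 in DMEM in control shRNA cells. HIPK2 was lower on 219028_at (-1.15 ± 0.29) but had 0.16 ± 0.21 on its brighter probe set 213763_at, and PML was lower on the dim 206503_x_at (-1.04 ± 0.29), while its 5 other tested probe sets lay above 0, between 0.13 and 0.49, and were not called. DAXX, on 2 probe sets, had 0.14 ± 0.17 and 0.28 ± 0.17 and was not called.

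NEDD8 is a related modifier with its own E1, E2 and cullin targets. For 15 of 18 listed genes and 28 probe sets, 0 ratios were past 2-fold in any of the 4 comparisons, against 10.1% to 11% of all probe sets in each direction between the media and 0.997% to 2.02% with the knockdown. The fit called 0 of 28 for the knockdown, against 0.327% lower and 0.601% higher over all probe sets. In limma 1 of the 28 had an unadjusted p under 0.05 (CUL4B), against 1621 of all 15304 probe sets. With the medium it called 6 lower and 2 higher, against 23.1% and 22.1% over all probe sets. CUL4B was lower in SCM on 3 of 4 probe sets (-0.62 to -0.43), CUL1 had -0.64 ± 0.14, DCUN1D1 -0.69 ± 0.20 and NAE1, the E1 subunit that corresponds to SAE1, -0.37 ± 0.13, against -1.25 ± 0.12 for SAE1. CUL5 was higher on both called probe sets, with 0.59 ± 0.12 and 0.62 ± 0.18. NEDD8 itself had 0.06 ± 0.11. Of the E1 enzymes of other ubiquitin-like proteins, 6 of 8 genes were measured, and beside NAE1 the fit called UBA1, the E1 of ubiquitin, higher, at 0.33 ± 0.11 (adjusted p = 0.0219).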
